A study of Mus musculus with 16 samples.

Results

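Eosinophils of the mouse duodenum were compared between the light and the dark part of the day in 2 sorted subsets, and 97 genes were listed as changed in both. RNA had been sequenced from CD11c-high and CD11c-low eosinophils of the lamina propria, the connective tissue under the epithelium, taken at zeitgeber time 3 (ZT3, hours after lights on) or ZT15. CD11c is an integrin chain on the cell surface. Each of the 4 groups (CD11c-high at ZT3, CD11c-high at ZT15, CD11c-low at ZT3, CD11c-low at ZT15) had 4 libraries of 1000 cells. The labels name no strain, age, genotype or treatment, and leave unsaid whether libraries are from separate mice and whether both subsets were sorted from one mouse.

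The 97 genes were chosen by their values in the 2 deposited tables, 1 per subset, each holding the authors' comparison of ZT15 (PM) with ZT3 (AM). A gene was taken when its row stood in both tables, and the 2 immunoglobulin segments that did so were left out. The tables together list 1413 genes, with 163 in the CD11c-high table and 1326 in the CD11c-low table once segments are removed. The shared genes thus make up 59.5% of the first list and 7.32% of the second. The number of genes tested is not given, so the overlap to expect of unrelated lists cannot be stated. For every listed gene there is a log2 fold change shrunken towards 0 with its posterior standard deviation (SD), a normalised count averaged over libraries, and an s-value. The s-value is the proportion of signs expected to be false in the list down to that gene. Only genes with an s-value under 0.05 are listed, so membership rests on these values, and every change below is a description with no test. No value of a single library is given in the tables, so the range over libraries and any overlap of groups were not analysed here. In what follows, positive changes are higher at ZT15, a pair of changes names CD11c-high before CD11c-low, and ± gives the deposited SD.

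Eosinophils are granulocytes that settle in the intestinal wall, where they store granule proteins, make lipid mediators and cytokines, and meet signals from nerves, microbes and food. Many of their functions, like those of other leukocytes, vary over the day, through the clock inside the cell and through feeding and hormonal signals from outside. The functions below were assigned to genes by hand after the values had been seen.

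The shared genes moved the same way in both subsets with 1 exception. Per the authors' deposited tables, higher levels at ZT15 in both subsets were seen for 51 and lower levels for 45. The exception was Cdkn2aipnl, which is related to a partner of a nuclear RNA exonuclease, with -0.32 ± 0.30 (s-value 0.0451) and 0.23 ± 0.20 (s-value 0.0489) in the authors' deposited tables. Its 2 s-values lie at the edge of the listing, and its mean normalised counts were 150 and 184. In CD11c-high cells 52.8% of all listed genes were higher and 47.2% lower. In CD11c-low cells 52.2% were higher and 47.8% lower, so the shared genes split between the directions much as each whole list did. Because the rule used both contrasts, nothing further is read from these shares. Counts by direction given below, for functions and for wider gene lists, are to be read beside them. The wider lists were written with earlier results of these data known. A common direction within a function or a list is therefore no result about that class of genes.

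The genes nearest to the listing threshold were Rasa2 (s-value 0.0499) and Cmip (0.0489) in the authors' deposited CD11c-high table and Cdkn2aipnl and Snrnp48 (0.0472) in the CD11c-low table. Genes just outside it are not listed. Summed over the 97 genes, the number of false signs to expect is 5.06 in the CD11c-high and 2.89 in the CD11c-low table. A false sign rate of each gene's own, recovered from successive s-values, was under 0.05 for 40 shared genes in CD11c-high cells (41.2%, against 42.3% of all listed) and for 72 in CD11c-low cells (74.2%, against 52.2% of all listed). It was under 0.05 in both subsets for 33 genes, all of which moved the same way in both.

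**Figure D1:**
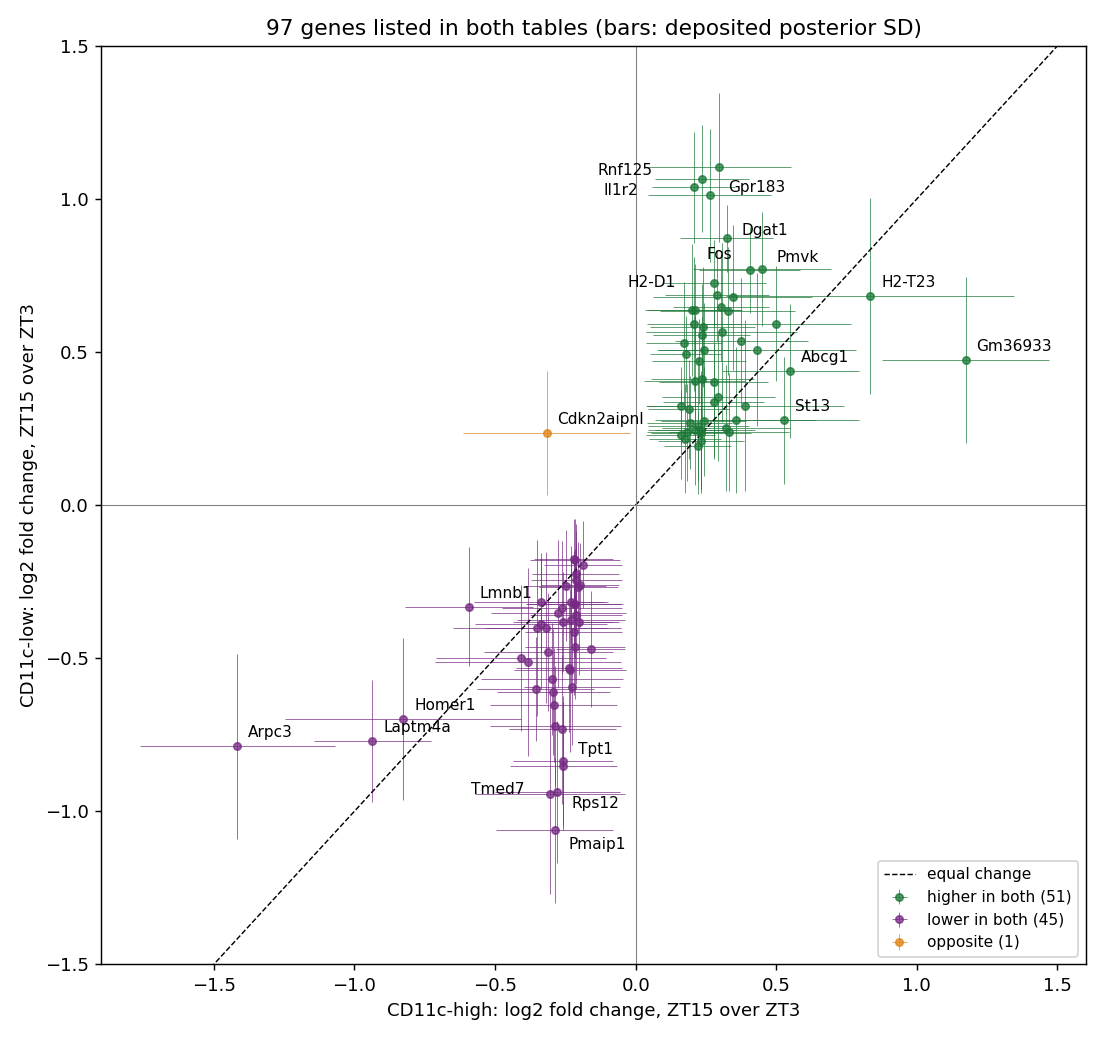
Change from ZT3 to ZT15 of the 97 shared genes, with the log2 fold change in CD11c-high eosinophils on the x axis and in CD11c-low eosinophils on the y axis; points are genes, bars are the deposited posterior SDs, and the dashed line marks equal change. All points but that of Cdkn2aipnl lie at the upper right (51) or lower left (45), and those of Il1r2, Rnf125, Gpr183, Pmaip1 and Rps12 lie far from the line of equal change, on the side of CD11c-low.

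The shared genes placed by hand among immune surface and effector genes were higher at ZT15. They were placed after their values had been seen, so their common direction is no result about surface genes as a class. All 10 rose in both subsets, with median changes of 0.25 and 0.56 in the authors' deposited tables. Il1r2, the decoy receptor that binds interleukin-1 without signalling, changed by 0.21 ± 0.15 and 1.04 ± 0.18, which are folds of 1.15 and 2.05. Its s-values were 0.0311 and 1.65e-09 and its mean normalised counts 3735 and 6311 in the authors' deposited tables. Gpr183, a receptor for oxysterols that directs the position of immune cells, changed by 0.26 ± 0.22 and 1.01 ± 0.22 (s-values 0.0383 and 2.12e-07) at mean normalised counts of 273 and 399 in the authors' deposited tables. Both genes belong to the 9 with the widest gap between subsets, described further on.

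The chemokine receptor gene Ccr1 changed by 0.17 ± 0.13 and 0.53 ± 0.20 in the authors' deposited tables. Itgb2, the beta chain shared by CD11c and its sister integrins, changed by 0.18 ± 0.13 and 0.22 ± 0.18, so it moved alike in both subsets. Hdc, the enzyme gene of histamine synthesis, changed by 0.24 ± 0.19 and 0.58 ± 0.20, and Tgm2, tissue transglutaminase, by 0.18 ± 0.13 and 0.49 ± 0.12 in the authors' deposited tables. Lilra6, an immunoglobulin-like receptor (0.29 ± 0.20 and 0.35 ± 0.21), and Emb, the adhesion protein embigin (0.43 ± 0.35 and 0.51 ± 0.25), had nearly equal pairs in the authors' deposited tables. Over the wider list of migration and adhesion genes, 4 rose and 2 fell of 6 listed in CD11c-high cells, and 8 rose and 6 fell of 14 in CD11c-low cells. Of these, 3 rose in both and 1, Rap1b, fell in both. All listed genes rose in 52.8% (CD11c-high) and 52.2% (CD11c-low) of cases.

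The class I genes of the major histocompatibility complex, whose products present peptides at the cell surface, had members of both kinds. H2-D1, a classical class I chain, changed by 0.28 ± 0.18 and 0.72 ± 0.14 (s-values 0.0147 and 1.35e-08) in the authors' deposited tables. H2-T23, which encodes the non-classical chain Qa-1, changed by 0.83 ± 0.51 and 0.68 ± 0.32 (s-values 0.00516 and 0.00299) at low mean normalised counts of 118 (118.5 before rounding) and 170 (170.3 before rounding). These are the 2 listed genes of antigen presentation in the CD11c-high table, where 2 of 2 rose, against 5 higher and 3 lower of 8 in the CD11c-low table. The treatment of reads shared with other class I genes is not known here, and both values are uncertain in that respect. The sequences just upstream of these genes are shown because both rose and both hold a CCAAT box, a common promoter element, at nearly the same distance from the start. They come from RefSeq (build GRCm38.p6), read 5′ to 3′ on the gene's strand over the 120 bases before the annotated start, with CCAAT (on either strand) and TATAAA in capitals. The H2-D1 stretch lies at chr17:35262974-35263093 on the plus strand, and the H2-T23 stretch at chr17:36032702-36032821 on the minus strand.
H2-D1: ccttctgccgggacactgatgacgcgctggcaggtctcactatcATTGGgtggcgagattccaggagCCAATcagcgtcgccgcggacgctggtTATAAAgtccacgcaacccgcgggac
H2-T23: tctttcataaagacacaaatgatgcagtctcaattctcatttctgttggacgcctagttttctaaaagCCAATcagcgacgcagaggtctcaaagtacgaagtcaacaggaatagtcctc
The longest run common to both stretches, AGCCAATCAGCG, has 12 bases and begins 55 bases before the start in H2-D1 and 54 before it in H2-T23. Only H2-D1 has a TATAAA match in this window. A CCAAT match stood in 40.7% of the 86 promoters of the shared genes found in the table and in 37.4% of all 32851 promoters there.

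The shared genes placed by hand among lipid genes rose, except for Agps. Of 7 shared members 6 rose in both subsets, and the median changes of all 7 were 0.32 and 0.54 in the authors' deposited tables. Dgat1, whose enzyme completes triglycerides, changed by 0.32 ± 0.17 and 0.87 ± 0.11, which are folds of 1.25 and 1.83. Its s-values were 0.00293 and 1.01e-15, at mean normalised counts of 3091 and 5368 in the authors' deposited tables. Pmvk, phosphomevalonate kinase of the cholesterol pathway, changed by 0.45 ± 0.25 and 0.77 ± 0.19 (s-values 0.00326 and 1.97e-06, mean normalised counts 2322 and 2067) in the authors' deposited tables. Both enzymes were thus higher at ZT15 in either subset, with the larger value in CD11c-low cells.

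Other lipid genes had more even pairs. Abcg1, a cholesterol exporter, changed by 0.55 ± 0.24 and 0.44 ± 0.22 in the authors' deposited tables. Lpin2, a phosphatidate phosphatase gene of glycerolipid synthesis, changed by 0.23 ± 0.18 and 0.24 ± 0.19, the closest pair of all members relative to its error. Fabp5l2, a copy of a fatty acid-binding protein gene whose reads may be shared with its parent, changed by 0.31 ± 0.27 and 0.56 ± 0.29 in the authors' deposited tables. Agps, which makes ether lipids in peroxisomes, fell (-0.35 ± 0.30 and -0.40 ± 0.29 in the authors' deposited tables). Over the wider list of cholesterol and lipid genes, 5 of 6 listed rose in CD11c-high cells and 11 of 13 in CD11c-low cells. These shares stand beside 52.8% and 52.2% of all listed genes, and the 5 that rose in CD11c-high cells were all among the shared genes.

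Of the shared transcription factor and chromatin genes 8 of 10 were higher at ZT15 in both subsets, beside 52.8% and 52.2% of all listed genes. The wider list of nuclear envelope and chromatin genes was split. There, 2 rose and 1 fell in CD11c-high cells, and 4 rose and 5 fell in CD11c-low cells. In CD11c-low cells 4 of the 10 changes exceeded 0.5 in size, those of Fos, Bbx, Gpbp1 and Kdm5a. Fos, the AP-1 subunit gene that responds to many stimuli within minutes, changed by 0.41 ± 0.18 and 0.77 ± 0.14 in the authors' deposited tables. Its s-values were 0.000515 and 3.74e-09 and its mean normalised counts 2606 and 3560. Bbx, an HMG-box gene, changed by 0.21 ± 0.17 and 0.59 ± 0.22 in the authors' deposited tables. Runx3, a RUNX factor of lymphoid and myeloid cells, had 0.32 ± 0.23 and 0.25 ± 0.21, and the zinc finger factor Klf13 had 0.19 ± 0.14 and 0.31 ± 0.16 in the authors' deposited tables. Set, a histone chaperone gene (0.33 ± 0.21 and 0.24 ± 0.19), Ankrd11 (0.19 ± 0.15 and 0.27 ± 0.15), Pbxip1 (0.18 ± 0.14 and 0.24 ± 0.16) and the MLL-family gene Kmt2e (0.16 ± 0.12 and 0.23 ± 0.15) rose as well in the authors' deposited tables. The 2 that fell were Kdm5a, an H3K4 demethylase gene (-0.24 ± 0.19 and -0.53 ± 0.21), and Gpbp1 (-0.23 ± 0.20 and -0.54 ± 0.27), per the authors' deposited tables.

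Fos and Homer1 are both known as genes that respond to calcium and cAMP signals, and they moved in opposite directions here. Homer1, a scaffold protein gene of receptor signalling, changed by -0.83 ± 0.42 and -0.70 ± 0.26 (s-values 0.00147 and 0.000622, mean normalised counts 271 and 214) in the authors' deposited tables. Of the immediate early and cAMP-responsive list, 1 gene rose and 2 fell in CD11c-high cells, while 10 rose and 7 fell in CD11c-low cells. All 3 of the former were shared, namely Fos, Homer1 and Dusp6. The upstream sequences of Fos and Homer1 are shown because both hold TGACGT, the core of the cAMP response element. The Fos stretch (GRCm38.p6, RefSeq, chr12:85473770-85473889, plus strand) covers the 120 bases before the start, and that of Homer1 (chr13:93303657-93303756, plus strand) covers the 100 bases before the start. Capitals mark TGACGT, searched on both strands, and in Fos also TATAAA.
Fos: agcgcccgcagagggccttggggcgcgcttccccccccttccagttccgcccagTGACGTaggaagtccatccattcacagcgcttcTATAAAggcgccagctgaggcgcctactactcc
Homer1: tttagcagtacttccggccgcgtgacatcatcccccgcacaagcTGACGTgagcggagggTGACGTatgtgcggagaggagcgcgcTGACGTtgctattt
The Fos match begins 66 bases before the start, and the 3 in Homer1 begin 56, 40 and 14 bases before it. At least 3 separate matches occurred in 6 of 32851 promoters of the table (0.0183%). Homer1 was picked after the search and because of its matches, so this share tests nothing. The table has another start for Homer1, with no TGACGT match in its window.

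The stress and protein quality genes included a pair of chaperone genes, both higher at ZT15, and 4 ubiquitin ligase genes, of which 3 rose and 1 fell. Hsp90ab1, the constitutive HSP90, changed by 0.21 ± 0.17 and 0.64 ± 0.15 in the authors' deposited tables. St13, which encodes the HSP70-interacting protein Hip, had the opposite order, 0.53 ± 0.27 and 0.28 ± 0.21 in the authors' deposited tables. The wider list of cytosolic chaperones had 2 higher of 2 listed for CD11c-high and 5 higher of 7 for CD11c-low. Among the ligases, Rnf125, a RING ligase known to act on antiviral sensors, changed by 0.24 ± 0.17 and 1.07 ± 0.17, folds of 1.18 and 2.09. Its mean normalised counts of 1035 and 1043 were nearly equal in the authors' deposited tables, and its s-values were 0.0255 and 1.58e-10. Maea, a subunit of the CTLH ligase, changed by 0.24 ± 0.16 and 0.51 ± 0.15, and the large ligase gene Mycbp2 by 0.23 ± 0.19 and 0.25 ± 0.19 in the authors' deposited tables. In the wider list of ubiquitin and proteasome genes, 1 rose and 1 fell in CD11c-high cells, and 17 rose and 25 fell of 42 listed in CD11c-low cells. Of that list only Rnf125 was shared. Rlim, a RING ligase gene of the X chromosome, fell (-0.26 ± 0.19 and -0.85 ± 0.21, s-values 0.0275 and 2.26e-06, mean normalised counts 1370 (1369.7 before rounding) and 1532) in the authors' deposited tables.

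The 2 BH3-only genes among the shared genes moved apart. These genes encode small proteins that promote apoptosis by binding members of the BCL2 family. Pmaip1, which encodes NOXA, changed by -0.29 ± 0.21 and -1.06 ± 0.24 (s-values 0.0232 and 4.73e-07) at mean normalised counts of 545 and 852 in the authors' deposited tables. It was 1.22-fold and 2.09-fold lower at ZT15. Bcl2l11, which encodes BIM, changed by 0.28 ± 0.18 and 0.34 ± 0.19 in the authors' deposited tables. In the wider list of cell death and cell cycle inhibitor genes, 3 rose and 1 fell in CD11c-high cells, and 4 rose and 4 fell in CD11c-low cells. For comparison, 52.8% and 52.2% of all listed genes rose.

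The shared ribosomal protein genes fell in both subsets. Each of the 12 shared members fell, with median changes of -0.27 and -0.54, from -0.36 to -0.21 (CD11c-high) and from -0.94 to -0.24 (CD11c-low) in the authors' deposited tables. They encode 5 proteins of the large subunit (Rplp1, Rpl22, Rpl26, Rpl32 and Rpl39) and 7 of the small subunit (Rps12, Rps14, Rps15a, Rps21, Rps24, Rps25 and Rps27a). The change was the larger in CD11c-low cells for all 12, beside 81.4% of the 97 shared genes. Rps12 changed by -0.28 ± 0.22 and -0.94 ± 0.23 (s-values 0.0323 and 2.99e-06, mean normalised counts 623 and 1111) in the authors' deposited tables. Rps21 (-0.29 ± 0.23 and -0.72 ± 0.20), Rpl32 (-0.29 ± 0.23 and -0.65 ± 0.18) and Rpl22 (-0.29 ± 0.20 and -0.61 ± 0.21) had pairs of the same kind in the authors' deposited tables. Rplp1 (-0.36 ± 0.21 and -0.60 ± 0.17), Rps24 (-0.23 ± 0.17 and -0.59 ± 0.19), Rps15a (-0.31 ± 0.23 and -0.48 ± 0.19) and Rps25 (-0.22 ± 0.18 and -0.46 ± 0.17) lay between the extremes in the authors' deposited tables. Rps27a had -0.26 ± 0.18 and -0.38 ± 0.16, and Rpl26 had -0.22 ± 0.17 and -0.32 ± 0.17 in the authors' deposited tables. At the other end, Rps14 had -0.21 ± 0.16 and -0.24 ± 0.16, and Rpl39 had -0.26 ± 0.21 and -0.33 ± 0.22 in the authors' deposited tables.

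The CD11c-high table lists no other ribosomal protein gene, and the CD11c-low table lists 49, of which 46 were lower and 3 higher, against 47.8% lower among all its listed genes. Ribosomal protein genes have many processed copies in the genome, and the treatment of shared reads is not known here, so their values are uncertain in that respect. Tpt1, the translationally controlled tumour protein gene, fell as well (-0.26 ± 0.18 and -0.84 ± 0.21, s-values 0.0219 and 3.91e-06, mean normalised counts 2123 and 3126 in the authors' deposited tables). Eif4a2, an initiation helicase gene, had -0.19 ± 0.14 and -0.20 ± 0.14 in the authors' deposited tables. Riok1, a kinase gene needed to finish the small subunit, was the one member of this group that rose, by 0.24 ± 0.15 and 0.27 ± 0.18 in the authors' deposited tables. The wider list of translation factors was split, with 1 higher and 2 lower in CD11c-high cells and 5 higher and 7 lower in CD11c-low cells. The mitochondrial large ribosomal RNA mt-Rnr2 had -0.20 ± 0.14 and -0.27 ± 0.15 in the authors' deposited tables, and was the most abundant shared transcript in each. Of the mitochondrially encoded genes it was the 1 listed in CD11c-high cells, while in CD11c-low cells 5 of 6 listed rose and mt-Rnr2 was the 1 that fell.

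The shared genes placed by hand in RNA processing were mostly lower at ZT15. Of 11 shared members 8 fell in both subsets, 2 rose and Cdkn2aipnl moved apart. Dhx15, a helicase gene of spliceosome release, changed by -0.26 ± 0.19 and -0.73 ± 0.24, and the helicase gene Ddx5 by -0.23 ± 0.12 and -0.32 ± 0.14 in the authors' deposited tables. Sfpq (-0.21 ± 0.17 and -0.32 ± 0.18) and Matr3 (-0.21 ± 0.16 and -0.36 ± 0.23), which encode RNA-binding proteins of the nucleus, and Fmr1, a translational repressor gene (-0.38 ± 0.33 and -0.51 ± 0.31), fell in the authors' deposited tables. The splicing factor genes Srsf5 (-0.22 ± 0.14 and -0.18 ± 0.13) and Tra2a (-0.20 ± 0.14 and -0.26 ± 0.14) and the cold-inducible Rbm3 (-0.22 ± 0.16 and -0.18 ± 0.13) had nearly even pairs in the authors' deposited tables. Snrnp48 of the minor spliceosome (0.22 ± 0.18 and 0.26 ± 0.22) and Rprd1b, which binds the tail of RNA polymerase II (0.24 ± 0.18 and 0.41 ± 0.20), rose in the authors' deposited tables. In the wider list of splicing and export genes, 5 of 5 listed fell in CD11c-high cells and 19 of 23 in CD11c-low cells, beside 47.2% and 47.8% of all listed genes. Only 4 of these were shared.

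Cytoskeletal and lamina genes were split. Of the 7 shared members 4 fell and 3 rose in both subsets. Arpc3, a subunit gene of the ARP2/3 complex that starts branched actin filaments, fell most. It changed by -1.42 ± 0.35 and -0.79 ± 0.30 (s-values 9.06e-06 and 0.000645) at mean normalised counts of 362 and 437 in the authors' deposited tables. That is 2.67-fold and 1.73-fold lower, the largest decrease of any shared gene in CD11c-high cells. Tmsb10, which binds actin monomers (-0.41 ± 0.30 and -0.50 ± 0.24), and Hcls1, a haematopoietic relative of cortactin (-0.34 ± 0.24 and -0.39 ± 0.21), fell in the authors' deposited tables. Coro1a, a coronin gene of leukocytes (0.16 ± 0.12 and 0.33 ± 0.13), Tes, a focal adhesion gene (0.22 ± 0.12 and 0.19 ± 0.11), and the kinesin gene Kif5b (0.23 ± 0.15 and 0.21 ± 0.17) rose in the authors' deposited tables. Lmnb1, lamin B1 of the nuclear envelope, changed by -0.59 ± 0.23 and -0.33 ± 0.20 in the authors' deposited tables. In the wider actin and cytoskeleton list, 4 of 5 listed fell in CD11c-high cells and 14 of 21 in CD11c-low cells. The shares that fell among all listed genes were 47.2% and 47.8%.

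Among membrane traffic genes, Laptm4a had the smallest s-value of all shared genes in CD11c-high cells. This lysosomal membrane protein gene changed by -0.94 ± 0.21 and -0.77 ± 0.20 (s-values 7.53e-07 and 6.16e-06), with mean normalised counts of 2086 and 2082 in the authors' deposited tables. It was 1.91-fold and 1.71-fold lower at ZT15, so its pair was close. Of the wider lysosome list 1 rose and 2 fell for CD11c-high, and 15 rose and 7 fell for CD11c-low. In the membrane traffic list 4 rose and 1 fell for CD11c-high, and 18 rose and 16 fell for CD11c-low. Beside both lists, 52.8% and 52.2% of all listed genes rose. Tmed7, a cargo receptor gene of the early secretory pathway, changed by -0.30 ± 0.27 and -0.94 ± 0.33 (s-values 0.0406 and 0.000235, mean normalised counts 198 and 281) in the authors' deposited tables. Lnpep, an endosomal aminopeptidase gene (-0.22 ± 0.17 and -0.42 ± 0.20), and the arrestin-like adaptor gene Arrdc3 (-0.20 ± 0.14 and -0.38 ± 0.17) also fell in the authors' deposited tables. Snx20, a sorting nexin gene whose product binds PSGL-1 (0.50 ± 0.27 and 0.59 ± 0.19), and Stx11, a SNARE gene of granule release (0.23 ± 0.17 and 0.47 ± 0.14), rose in the authors' deposited tables.

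Signalling genes divided into 6 that fell and 5 that rose. The wider list of signalling phosphatases and kinases was also split, with 5 higher and 5 lower in CD11c-high cells and 22 higher and 25 lower in CD11c-low cells. Catalytic subunits of the serine/threonine phosphatases PP1 and PP6 fell, namely Ppp1cb (-0.32 ± 0.22 and -0.40 ± 0.25) and Ppp6c (-0.30 ± 0.25 and -0.57 ± 0.18), in the authors' deposited tables. The tyrosine phosphatase gene Ptpn1, which limits cytokine and insulin receptor signals, rose (0.24 ± 0.17 and 0.56 ± 0.17) in the authors' deposited tables. The ERK phosphatase gene Dusp6 (-0.25 ± 0.14 and -0.26 ± 0.18), the G protein gene Gnaq (-0.34 ± 0.24 and -0.32 ± 0.16) and Rap1b, a GTPase gene of integrin activation (-0.16 ± 0.12 and -0.47 ± 0.19), fell in the authors' deposited tables. Jak1, a kinase gene of cytokine receptors (0.21 ± 0.14 and 0.24 ± 0.18), the RAS inhibitor gene Rasa2 (0.21 ± 0.18 and 0.41 ± 0.21) and the adaptor genes Sh2d3c (0.36 ± 0.29 and 0.28 ± 0.24) and Cmip (0.20 ± 0.17 and 0.64 ± 0.22) rose in the authors' deposited tables.

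The remaining 12 genes have other or little known roles, and 8 of them rose. The host transcript of the haematopoietic microRNA miR-142, Mir142hg, changed by 0.29 ± 0.18 and 0.69 ± 0.15 in the authors' deposited tables. Fndc5, the precursor gene of irisin (0.33 ± 0.24 and 0.63 ± 0.21), Ankrd33b (0.30 ± 0.17 and 0.65 ± 0.17) and the transporter gene Slco4a1 (0.28 ± 0.19 and 0.40 ± 0.25) rose in the authors' deposited tables. The predicted genes included Gm36933, with 1.17 ± 0.30 and 0.47 ± 0.27 (s-values 1.48e-05 and 0.0105, mean normalised counts 155 and 128), and D030028A08Rik, with 0.29 ± 0.26 and 1.10 ± 0.24 (s-values 0.0409 and 3.20e-07, mean normalised counts 341 and 326) in the authors' deposited tables. These were the largest increases among shared genes, the former in the CD11c-high and the latter in the CD11c-low subset. Gm26049 (0.34 ± 0.28 and 0.68 ± 0.24) and Gm17066 (0.39 ± 0.35 and 0.33 ± 0.28) rose too in the authors' deposited tables. The repair gene Swi5 (-0.23 ± 0.19 and -0.37 ± 0.24), the selenoprotein gene Selenow (-0.27 ± 0.24 and -0.35 ± 0.24) and BC005537 (-0.21 ± 0.15 and -0.22 ± 0.16) fell in the authors' deposited tables.

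**Figure D2:**
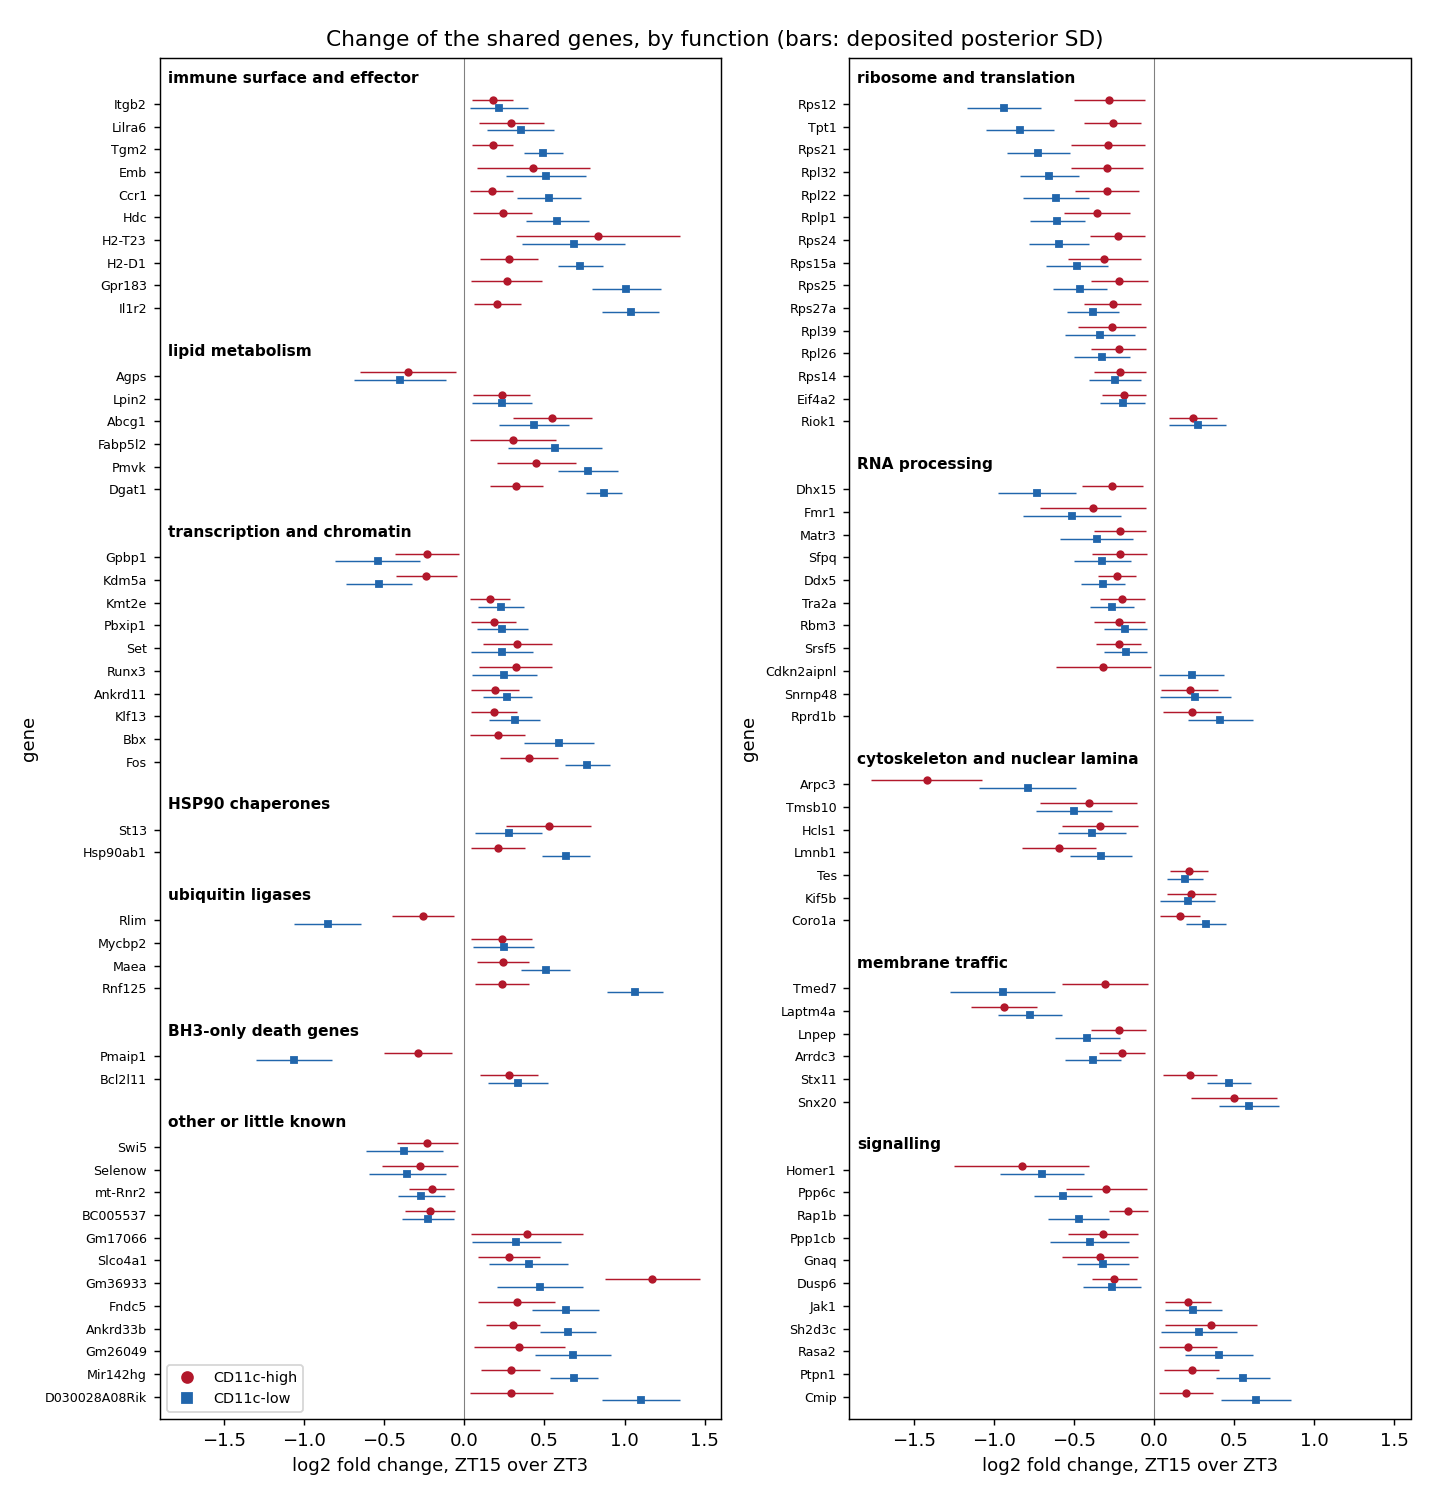
Log2 fold change from ZT3 to ZT15 (x axis) of the shared genes named in the text (rows), grouped by function, in CD11c-high (red circles) and CD11c-low (blue squares) eosinophils, with bars for the deposited posterior SD. All 10 immune surface and effector genes lie to the right of 0 in both subsets, and all 12 ribosomal protein genes lie to the left of it.

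Set against each other, the change of CD11c-low cells exceeded that of CD11c-high cells in size for 79 of the 97 genes. Both tables are shrunken by an unknown amount and both were used to choose the genes, so the differences below are a description with no test. Each is given as CD11c-low minus CD11c-high, ± the combined SD, the root of the summed squares of both deposited SDs. This treats the 2 estimates as independent, which was not tested. The median size of change was 0.26 for the CD11c-high and 0.46 for the CD11c-low subset. For 62 genes the difference lay within 1 combined SD and for 9 it exceeded 2. In all 9 the change of CD11c-low cells was the larger.

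The widest gaps relative to the error were those of Il1r2 (0.83 ± 0.23) and Rnf125 (0.83 ± 0.24), the 2 genes past 3 combined SDs. Dgat1 (0.55 ± 0.20), Gpr183 (0.75 ± 0.31) and D030028A08Rik (0.81 ± 0.35) followed among the genes that rose. Among the genes that fell, the gaps were -0.77 ± 0.32 for Pmaip1, -0.60 ± 0.28 for Rlim, -0.58 ± 0.28 for Tpt1 and -0.66 ± 0.32 for Rps12. H2-D1 (0.44 ± 0.23), Hsp90ab1 (0.42 ± 0.23) and Tgm2 (0.32 ± 0.18) lay just under 2 combined SDs. For the 9 genes past 2 combined SDs the sizes in CD11c-high cells were a median 0.271 times those in CD11c-low cells, and the former lay between 0.21 and 0.32 in log2 per the authors' deposited CD11c-high table.

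For 18 genes CD11c-high cells had the larger change, none with a gap over 2 combined SDs. Of these, 10 rose in both, 7 fell in both and 1 was Cdkn2aipnl. Gm36933 (-0.70 ± 0.40), Cdkn2aipnl (0.55 ± 0.36) and Arpc3 (0.63 ± 0.46) had the widest gaps. Lmnb1, St13, Abcg1, H2-T23, Laptm4a and Homer1 belong here too, each with a gap within 1 combined SD. By function, the larger change lay in CD11c-low cells for 15 of 15 ribosome and translation genes and 9 of 10 immune surface and effector genes. It did so for 6 of 7 lipid genes and 3 of 7 cytoskeletal and lamina genes. These counts stand beside 81.4% of all 97 genes. Of the 15 ribosome and translation genes, 8 had a gap within 1 combined SD. No test of a difference between functions was made. Correlations of the 2 changes across genes, which are not independent replicates, are a description over values that also chose the genes. Among the 51 genes that rose, Pearson's r was 0.12 and Spearman's rho 0.32. Among the 45 that fell the values were 0.35 and 0.54. The 2 changes share no libraries, and animals may be shared. How the counts were normalised is not described.

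**Figure D3:**
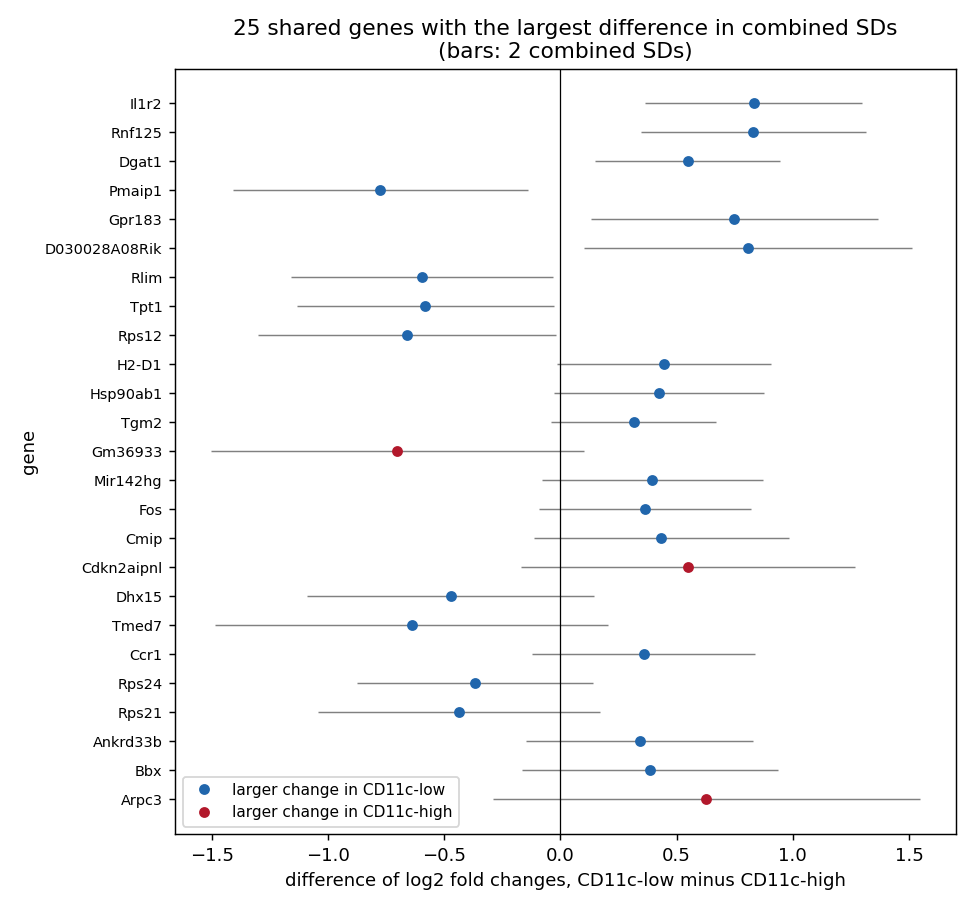
Difference of the log2 fold changes, CD11c-low minus CD11c-high (x axis), for the 25 shared genes with the largest difference relative to the combined SD (rows), with bars of 2 combined SDs; blue points have the larger change in CD11c-low and red points in CD11c-high cells. The bars of 9 genes, from Il1r2 down to Rps12, do not reach 0, and all 9 points are blue.

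The level of the shared genes, averaged over both times, was not itself a criterion for choosing them. It bears on the s-values that chose them through the error of the change. Mean normalised counts ranged from 98.0 (Agps) to 16209 (mt-Rnr2) in the CD11c-high table and from 118 (117.7 before rounding; Agps) to 24886 (mt-Rnr2) in the CD11c-low table. Medians were 588 and 852 in the authors' deposited tables. Shared genes were more abundant than the rest of each list. In CD11c-low cells the median was 831 among shared genes that were higher there and 852 among those lower, against 356 and 255 for listed genes that were not shared. In CD11c-high cells these medians were 591 and 557 against 350 (350.1 before rounding) and 197. A higher count narrows the error of a change, and the part of abundance in which genes were listed in both was not tested.

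No shared gene had the same mean normalised count in both tables. Means over the libraries of 1 subset would differ under joint or separate normalisation, so this does not settle which was used. The tables are read here as normalised separately, which is not stated. On that reading a level can be set across them only relative to other genes. The mean normalised count in CD11c-low over CD11c-high cells had a median ratio of 1.37 over the 97 genes. All 12 ribosomal protein genes lay above it, with ratios from 1.6 to 2.19. The highest ratio was that of Lilra6 (3.09, from 296 and 915), followed by H2-D1 (2.35), Tgm2 (2.31) and Rps27a (2.19). The lowest was that of Fndc5 (0.723). Whether these ratios show a difference in the cells was not tested.

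**Figure D4:**
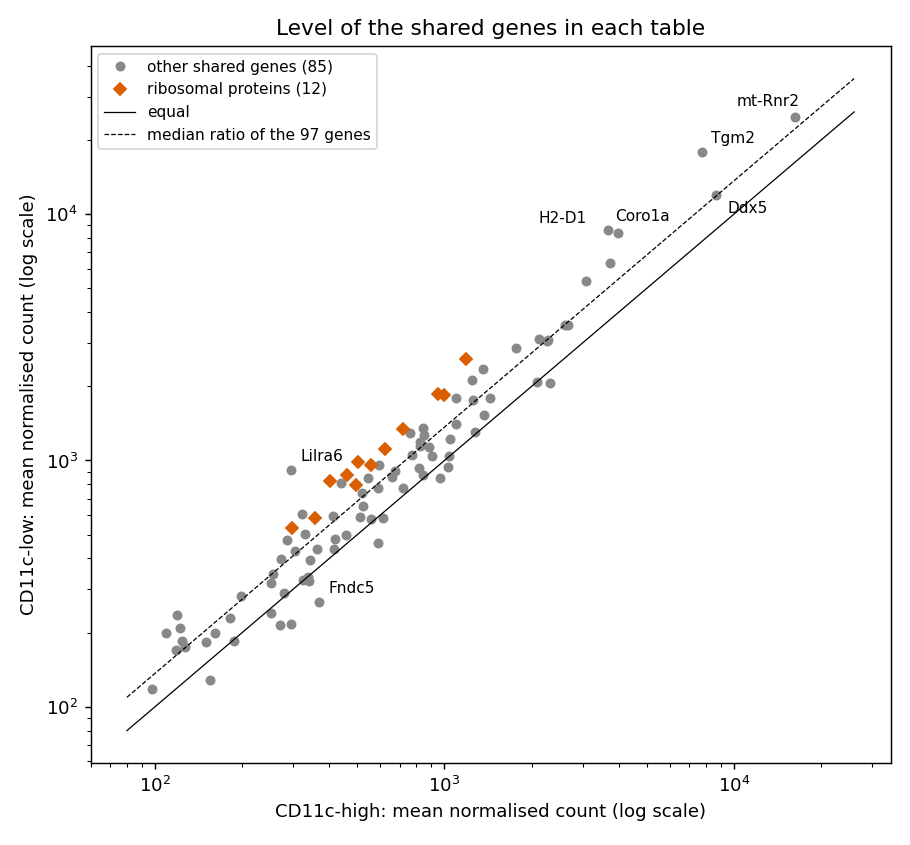
Mean normalised count of the 97 shared genes in the CD11c-high table (x axis, log scale) and the CD11c-low table (y axis, log scale), with ribosomal protein genes as orange diamonds; the solid line marks equal values and the dashed line the median ratio of 1.37. All 12 ribosomal protein genes lie above the dashed line, and Lilra6 lies farthest above it.

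Features of sequence were looked at because the rule did not use them. A promoter window of 250 bases before to 50 after the start (RefSeq, GRCm38.p6) was found for 66 of the 97 genes, with 86 start sites. TGACGT, the core of the cAMP response element, was present on either strand in 14.0% of these windows, in 13.6% of those of listed genes that were not shared and in 7.51% of all promoters. CACGTG, the E-box bound by clock factors among others, was present in 8.14%, 11.6% and 7.15%. Its last 2 letters can be the first 2 of TGACGT. TTANGTAA, a D-box form, was present in 1.16%, 1.77% and 2.32%, and TAGGTCA, the core of the ROR element, in 3.49%, 1.46% and 2.61%. GGGCGG, the GC box, stood in 59.3%, 62.1% and 35.7%, and TATAAA in 9.30%, 7.78% and 13.6%. Windows of 1 gene can overlap and share sites, so intervals were made with each gene counted once. TGACGT was then present in 12 of 66 shared genes (18.2%, 95% exact binomial interval 9.76 to 29.6%) and in 162 of 996 other listed genes (16.3%, interval 14.0 to 18.7%). The intervals of shared and other listed genes overlapped for each of these motifs. They cover counting error only.

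CCGGAAG, a form of the ETS site, had the widest gap between directions. It was present in 2 of 32 genes that rose (6.25%, interval 0.766 to 20.8%) and in 10 of 33 genes that fell (30.3%, interval 15.6 to 48.7%), and these intervals overlap. Of the 10 genes 4 encode ribosomal proteins. The share was 23.5% among other listed genes and 9.93% among all genes of the promoter table. The upstream sequence of Il1r2, the gene with the widest gap between subsets relative to its error, is shown because it holds 2 E-boxes. The stretch lies from 250 to 151 bases before the start (GRCm38.p6, RefSeq, chr1:40085843-40085942, plus strand), with CACGTG in capitals.
Il1r2: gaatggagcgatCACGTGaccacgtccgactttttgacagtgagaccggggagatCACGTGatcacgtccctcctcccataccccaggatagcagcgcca
At least 2 separate CACGTG matches stood in 195 of 32851 promoters (0.594%). Il1r2 was picked after the search and because of its matches, so this share tests nothing. A match is a string of letters and does not show that a factor binds there.

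Transcripts of the shared genes that rose had a higher GC content than those that fell, with medians of 52.7% (quartiles 46.9 and 55.4%) and 47.1% (quartiles 43.3 and 51.1%). Without ribosomal protein genes the latter was 43.6%. Listed genes of the CD11c-low table that were not shared had 50.5% when higher and 47.4% when lower. Median transcript lengths were 2070 nt (889 to 3063 nt between quartiles) for shared genes that rose and 1720.5 nt (714 to 2724 nt) for those that fell, the latter 2214 nt without ribosomal protein genes. Unshared genes of the CD11c-high table had close GC medians, 49.3% when higher (35 genes) and 49.96% when lower (30 genes). Their median lengths were 2826 nt when higher and 1233.5 nt when lower. For unshared genes of the CD11c-low table the lengths were 1742 nt and 2363.5 nt. GC content moved with direction in the shared genes, and its part in the result was not tested.

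Of the marker genes of eosinophils, 5 of 15 were listed in the CD11c-low table, none in the CD11c-high table and none in both, so the identity of the sorted cells cannot be checked from these lists. Of the markers of plasma, B, T and NK, mast and basophil, macrophage and dendritic, neutrophil, epithelial, stromal and endothelial cells, 1 was in both tables, the histamine synthesis gene Hdc, which was also the 1 listed in CD11c-high cells. The authors' deposited CD11c-low table lists 6 more of these markers. Higher at ZT15 there were the macrophage marker Cd68 (0.52 ± 0.30), the B cell marker Bank1 (0.32 ± 0.15), the immunoglobulin gene Ighm (0.24 ± 0.20) and the cytotoxic granule gene Gzma. The deposited change of Gzma was 20.99 ± 3.33 at a mean normalised count of 30.4. A change of that size at so low a count is not read here as a fold. Lower were Cd74, the invariant chain of antigen presentation (-0.49 ± 0.33), and the epithelial keratin gene Krt18 (-0.35 ± 0.24), per the authors' deposited table. None of the neutrophil, stromal and endothelial markers is listed in either table. Immunoglobulin segments, which are transcripts of B and plasma cells, were not among these markers but were listed in both subsets. With them the CD11c-high list had 172 genes and without them 163. The CD11c-low list had 1340 and 1326, and 2 segments stood in both. The few markers listed for CD11c-high cells thus do not show that transcripts of other cells were absent. The part of other cells in the shared changes was not tested. The level of an unlisted marker was not analysed here. In bulk samples a lower share of cells with a transcript and less of it per cell cannot be told apart. No core clock gene was shared, with 0 listed in CD11c-high and 2 of the clock and clock output list in CD11c-low cells.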

How the data were processed

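Per the labels' protocols, polyadenylated RNA of sorted cells was amplified and a Nextera XT kit was used for the libraries. The submitters' processing notes name STAR 2.7.10b, DESeq2 1.38.3 and the build GRCm39 and assign no task to any of them. Counting and shrinkage are not described. Per the file headers, the authors deposited for each gene a mean normalised count (a signal averaged over libraries), a log2 fold change with its error (read here as a posterior SD, since s-values belong to shrunken estimates) and an s-value, which is not a p-value. The tables' names gave the direction. Without values per library, depth is unknown and intervals for counting error were not made for genes. Libraries of a group may share animals, so the errors may be technical.

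Genes were joined on the row identifier with Python 3.11.15, pandas 2.3.3 and NumPy 2.4.6. The per-gene false sign rate and the motif search were tested on simulated data. Transcript length and GC, added after the tables had been seen, are medians over a gene's protein-coding transcripts (all transcripts where it has none) in GENCODE M21. Promoters were matched by symbol, and their build, GRCm38.p6, is not that of the tables. Protein length, which had been planned, was not used here.

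The members and the 24 wider lists were chosen with earlier results of these data known. A kinase gene taken into the ribosomal protein list by its symbol was later removed. The naming rule allowed every shared gene that is not a predicted one. It asked for s-values and mean counts of the 8 largest summed changes in each direction, the 8 widest gaps, any gene of opposite direction and up to 4 genes per list. For most genes of the lists only the changes are printed. Predicted genes were named after their values had been seen. Values of 1 lipid gene are not reported here, and it enters the counts and medians only.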

Additional observations from a re-analysis of the deposited data

How the results depend on the processing

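Stricter listing left fewer shared genes, the same agreement of direction and a smaller share with the larger change in CD11c-low cells. That share was 79 of 97 as listed, and 24 of 33 and 8 of 13 under the stricter settings that follow. The median ratio of sizes, CD11c-high over CD11c-low, was 0.677 as listed and 0.724 under both settings. With an s-value under 0.01 in both subsets there were 13 genes, all with the same direction, 8 higher and 5 lower, 8 with the larger change in CD11c-low cells and 1 with a gap over 2 combined SDs. With a false sign rate of each gene's own under 0.05 in both there were 33, all with the same direction, 18 higher and 15 lower, 24 with the larger change in CD11c-low cells and 3 with such a gap. Under a limit of 3 combined SDs, 2 genes in place of 9 had a gap. Leaving out ribosomal protein genes or predicted genes, keeping immunoglobulin segments, matching by symbol and dividing each change by its SD moved no count by more than 1.5 times. A minimum mean normalised count of 50 removed none of the 97 genes and tests nothing. The window of 250 bases alone kept every motif share of the shared genes within the interval given by the longer window. No paired analysis was possible because no deposited column belongs to a single library, and for the same reason leaving out a replicate was not run.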
